A study of Rattus norvegicus with 16 samples.

Results

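The genes examined here were the listed components of the Wnt and Notch signalling pathways in glomeruli, the filtering units of the kidney, of rats with nephrotic injury. They were picked by gene symbol, and not by a threshold on measured values, as Wnt ligands, their receptors and secreted inhibitors, the relay from Dishevelled to beta-catenin, the TCF/LEF factors, and the Notch receptors, ligands and Hes/Hey factors. The symbols matched 44 of the 13222 genes in the table: 3 Wnt ligands, 12 Wnt receptors and co-receptors, 4 secreted Wnt inhibitors, 8 relay proteins, 4 nuclear factors, 4 Notch receptors, 4 Notch ligands and 5 Hes/Hey factors. Several familiar members, such as Wnt4, Dkk3 and Axin1, were not analysed here.

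The samples were poly(A) RNA libraries from sieved glomeruli of 16 male Wistar rats of about 175 g, taken on day 11, with 4 rats in each of 4 groups. The control group was labelled healthy. The PAN group received an intravenous injection of puromycin aminonucleoside (PAN), an aminonucleoside toxic to podocytes, the cells that carry the filtration slits. The other two groups received PAN and either pioglitazone or GQ-16 by daily gavage. A sham vehicle is named in the labels without the groups that received it, and no dose, age or treatment start is given. Pioglitazone is a thiazolidinedione agonist of the nuclear receptor PPARγ, and GQ-16 is known as a partial agonist of it. No genetic change is labelled, and a sieved glomerulus holds podocytes, endothelial cells and mesangial cells together with attached tubule fragments. The rats are called control 1 to 4, PAN 1 to 4, pioglitazone 1 to 4 and GQ-16 1 to 4, where the numbers only name them.

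In canonical Wnt signalling, a ligand that binds a Frizzled receptor and an LRP5 or LRP6 co-receptor stops the APC, Axin and GSK3 complex from marking beta-catenin for destruction, and beta-catenin then activates TCF/LEF target genes such as Axin2. Secreted proteins of the Sfrp and Dkk families hold the pathway back outside the cell, and ligands such as Wnt5a also signal without beta-catenin. In Notch signalling, a Jagged or Delta-like ligand on one cell triggers cleavage of a Notch receptor on its neighbour, and the freed receptor domain joins RBPJ on DNA to activate Hes and Hey repressors. In the kidney both pathways act in nephron formation and have been studied in injured podocytes, and Notch3 is a receptor of vascular smooth muscle, pericytes and mesangial cells.

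Levels are scaled CPM, the deposited counts scaled to a common library total (CPM) and divided by a library factor that aligns the middle of all genes between libraries. These levels can be compared between rats for a gene but not between genes, since they are not divided by transcript length. The libraries held between 13351137 and 21977663 reads in listed genes, and each of the 44 genes had at least 11 reads in every library. Mitochondrial transcripts took 26.3 ± 11.8% of reads in control rats and 9.24 ± 2.20% in PAN rats (mean ± SD, n = 4). Of 10 mesangial and smooth muscle marker genes 6 rose in PAN rats, and their summed level was 1060.5 to 1213 scaled CPM in control rats and 1413 to 1959 in PAN rats. Of 12 distal tubule and duct markers 4 fell, and of 7 striated muscle markers, which are foreign to glomeruli, 5 rose, from a sum of 54.0 to 143 to one of 496 to 797 scaled CPM. The summed podocyte markers (15 genes, 1 higher) ran from 4025 to 11363 in control and from 9015 to 11627 in PAN rats, so podocyte RNA was present in every library. Libraries stood apart in places: control 1 had a podocyte sum of 11363 against at most 5749 in the other control rats. The fibroblast markers (5 genes, of which Col1a1 rose) summed to 104 to 164 scaled CPM in control and 173 to 2299 in PAN rats, with no overlap, and PAN 1 stood apart at 2299 against at most 347 in the other PAN rats. In bulk tissue, fewer cells of a type and less RNA per cell cannot be told apart.

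PAN injury was accompanied by higher RNA of 4 of the 44 genes: the secreted Wnt inhibitors Sfrp2 and Dkk2, the ligand Wnt5a and the receptor Notch3. None of the 44 fell (limma, Benjamini-Hochberg adjusted p under 0.05 over all 13222 genes). The 4 genes are 9.09% of the set, and 7.13% of all genes rose and 1.5% fell, 8.63% in either direction, so the share changed was near that of the whole table. Across the set 17 genes had a positive and 27 a negative log2 change, with a median of -0.08 beside -0.003 for all genes. The 8 PAN and control rats did not overlap for 5 of the 44 genes, 11.4% against 15.8% of all genes. These were Sfrp2, Notch3 and Dkk2, higher in PAN, and Gsk3b and Apc, lower in PAN on this scale but overlapping with deposited totals.

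**Figure D1:**
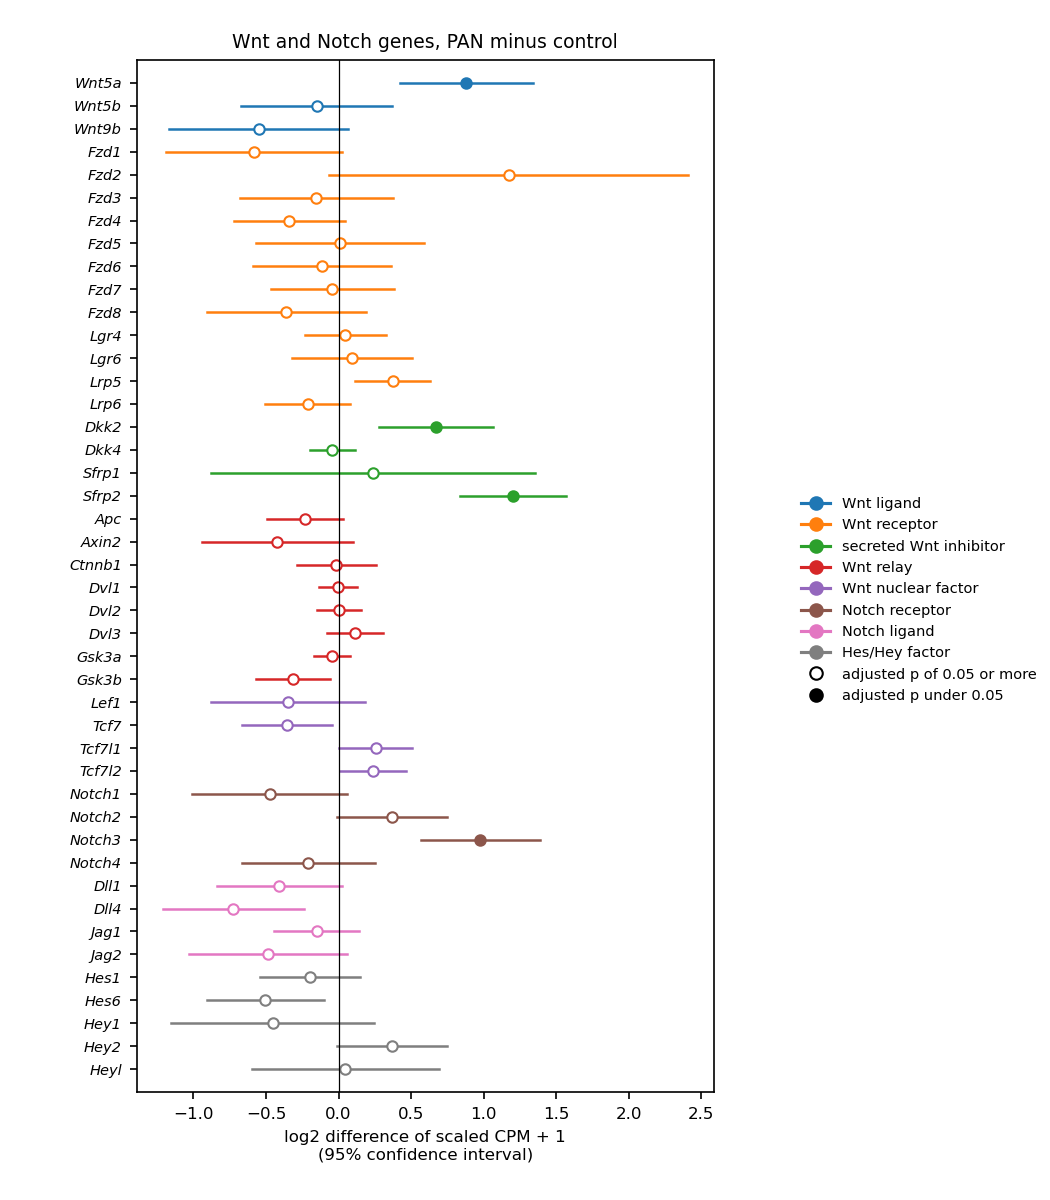
Log2 change of each of the 44 genes in PAN against control rats on the log2(scaled CPM + 1) scale, grouped by role, with bars for the 95% confidence interval of the limma fit. Filled points mark an adjusted p under 0.05: Sfrp2, Notch3, Wnt5a and Dkk2, all to the right of 0.

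Sfrp2 (ENSRNOG00000009465), a soluble decoy that binds Wnt proteins through a Frizzled-like domain, had the smallest adjusted p of the set. Its level was 122, 104, 76.0 and 119 scaled CPM in control 1 to 4 and 247, 313, 189.6 and 224 in PAN 1 to 4. Every PAN rat lay above every control rat. The means were 105 ± 20.9 and 243 ± 51.9 (SD, n = 4 each), and the log2 change was 1.203 with a standard error of 0.172 (adjusted p = 0.00142, limma). Sfrp2 remained past the threshold when any 1 of the 8 rats was left out, with log2 changes of 1.06 to 1.31.

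Dkk2 (ENSRNOG00000011360), a secreted protein that binds LRP5 and LRP6, was at 233, 220.1, 225 and 275 scaled CPM in control and 394, 526, 299 and 332 in PAN rats. The lowest PAN rat, PAN 3, was only just above the highest control rat, control 4. The means were 238 ± 25.3 and 388 ± 100.3, a log2 rise of 0.67 ± 0.184 (SE; adjusted p = 0.0364, limma). Its call rested on single rats: without control 1, control 2, control 3, PAN 1 or PAN 2 the adjusted p by limma was 0.0515, 0.105, 0.107, 0.0955 and 0.113 in turn, with log2 changes of 0.51 to 0.66. The other inhibitors did not pass the test. Sfrp1, a close relative of Sfrp2, was at 5.42, 10.6, 4.93 and 4.58 scaled CPM in control and 37.1, 5.02, 3.96 and 3.16 in PAN rats. PAN 1, the rat with the high fibroblast sum, held the only high value, and without it the log2 change of 0.24 became -0.50, neither of them past the threshold. Dkk4 lay between 8.66 and 10.8 scaled CPM in all 16 rats.

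Among the ligands, Wnt5a (ENSRNOG00000015618), best known for signalling without beta-catenin through Ror receptors, was at 10.2, 4.90, 4.23 and 6.37 scaled CPM in control and 11.5, 12.95, 14.1 and 10.2 in PAN rats. The groups overlapped at one point, where control 1 lay just above PAN 4. The means were 6.44 ± 2.69 and 12.2 ± 1.71, a log2 rise of 0.88 ± 0.214 (SE; adjusted p = 0.0202, limma). Without control 2, control 3, PAN 2 or PAN 3 the adjusted p by limma was 0.0732, 0.0787, 0.0606 and 0.0538 in turn, with log2 changes of 0.73 to 0.85. Wnt5b and Wnt9b did not pass the test, with log2 differences of -0.15 and -0.55.

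Notch3 (ENSRNOG00000004346) was the one Notch receptor that rose. Its level was 124, 119, 86.0 and 111 scaled CPM in control and 231, 263, 185 and 193 in PAN rats, with no overlap. The means were 110.2 ± 17.0 and 218 ± 36.1, a log2 change of 0.98 ± 0.192 (SE; adjusted p = 0.00674, limma), and the call held without any 1 of the 8 rats, with log2 changes of 0.86 to 1.05. The mesangial and smooth muscle markers moved with Notch3, Sfrp2, Dkk2 and Wnt5a, with the sums given above not overlapping between the 2 groups. With the mean of these markers as a covariate, an alternative chosen after the data were seen, the log2 changes of Sfrp2, Notch3, Dkk2 and Wnt5a were 0.75, 0.49, 0.22 and -0.099. None passed the test (adjusted p = 0.483, 0.718, 0.871 and 0.929, limma), and neither did any other of the 44 genes, while 1 of all 13222 genes did. The mean of these markers did not overlap between the groups either, at 4.82 to 5.64 in control and 6.13 to 6.77 in PAN rats (log2). The standard errors rose to 0.296 for Sfrp2 and 0.333 for Notch3, so this fit cannot separate the group difference from the markers. With the tubule markers as a covariate Notch3 had a log2 change of 0.77 (adjusted p = 0.105, limma) and Sfrp2 one of 1.09 (adjusted p = 0.0265, limma). Dkk2 and Wnt5a lost their calls in several fits, some of which left the change as large. Dkk2 was at 0.41 with the tubule markers, 0.73 with the podocyte markers and 0.67 in a fit of the 2 groups alone (adjusted p = 0.309, 0.0675 and 0.0592, limma). Wnt5a was at 0.74, 0.52 and 0.88 in the same fits (adjusted p = 0.171, 0.0968 and 0.06, limma). With the mitochondrial share as a covariate Sfrp2 kept its call, Notch3 at 1.03 and Dkk2 at 0.66 were as large as before without passing, and Wnt5a was smaller at 0.37 (adjusted p = 0.0555, 0.229 and 0.402, limma). The sample titles carry numbers whose meaning is not stated, 10 or less in all control rats and 25 or more in PAN 1, 2 and 3. The covariate made from it only marked numbers of 25 or more, which no control rat had. With this covariate Sfrp2 and Notch3 kept their calls, and Dkk2 at 0.56 and Wnt5a at 0.696 did not (adjusted p = 0.253 and 0.21, limma). The summed fibroblast and striated muscle markers also moved with these rises, with no overlap between control and PAN rats, and their part in them was not tested.

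**Figure D2:**
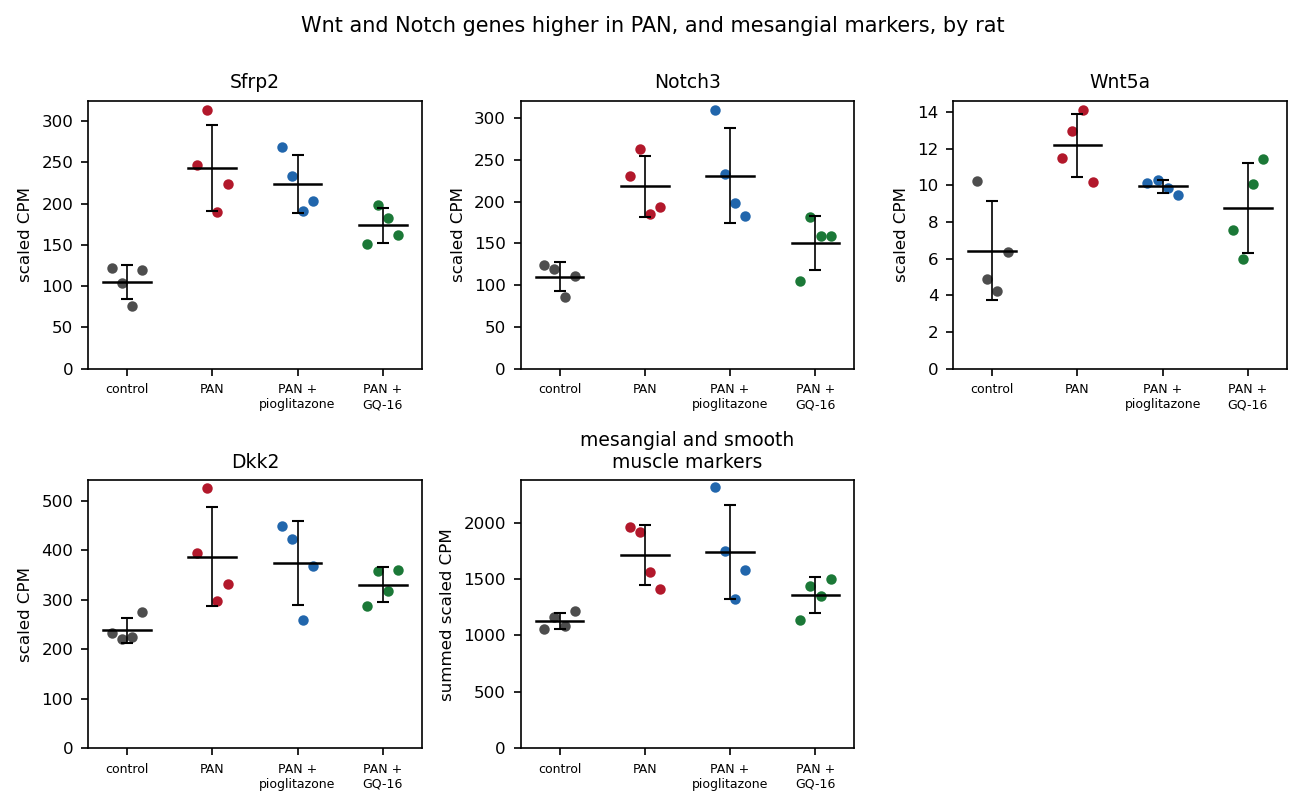
Scaled CPM of the 4 genes that rose in PAN rats, and the summed level of mesangial and smooth muscle markers, in each of the 16 rats by group, with lines for the group mean and bars for ± 1 SD (n = 4). For Sfrp2, Notch3 and Dkk2 all PAN rats lie above all control rats, and the GQ-16 rats lie below the PAN rats for Notch3.

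The other Notch receptors did not pass the test. Notch1, the broadly used receptor that is strong in endothelium, was at 422, 729, 659 and 611 scaled CPM in control and 476, 433, 542 and 296 in PAN rats, a log2 difference of -0.48 (adjusted p = 0.230, limma). Control 2, 3 and 4 lay above all PAN rats and control 1 lay among them. Notch2, the receptor needed for proximal nephron formation, was at 67.5, 51.5, 41.6 and 47.8 and 82.6, 65.6, 58.9 and 61.0, a log2 difference of 0.37 (adjusted p = 0.201, limma). Notch4, an endothelial receptor, differed by -0.21 on the log2 scale (adjusted p = 0.543, limma).

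All 4 Notch ligands had negative log2 differences in PAN rats, from -0.72 to -0.15 with a median of -0.45, but Jag1 was at 0.14 with deposited totals, Jag2 at 0.026 with the mitochondrial share as a covariate and Dll1 at 0.024 with the mesangial markers. None passed the test. Dll4, the endothelial ligand of arterial and tip cells, came closest and is described because its value was seen. It was at 118, 155, 150.2 and 150.1 scaled CPM in control and 95.9, 78.2, 122 and 59.5 in PAN rats, where only PAN 3 reached the control range. Its log2 difference was -0.72 ± 0.228 (SE; adjusted p = 0.0623, limma), and it passed the test without control 1 (adjusted p = 0.0464, limma), without PAN 3 (adjusted p = 0.0306, limma) and with the tubule markers as a covariate (adjusted p = 0.027, limma). Jag1, a ligand of mesangial, endothelial and epithelial cells, was at 43.9, 37.0, 43.1 and 38.3 in control and 39.7, 36.8, 35.6 and 33.7 in PAN rats, with overlapping groups and a log2 difference of -0.15 (adjusted p = 0.490, limma). Jag2 and Dll1 differed by -0.48 and -0.41 on the same scale. Endothelial markers (13 genes, 1 higher in PAN) had summed levels of 6676 to 10819 scaled CPM in control and 5935 to 8939 in PAN rats, and control 1 had the lowest control value for this sum as for Notch1, Notch4, Dll4 and Jag2. With the endothelial markers as a covariate the differences were -0.46 for Dll4, -0.19 for Dll1, -0.11 for Jag2 and -0.096 for Jag1, all smaller than without it, and none passed the test.

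**Figure D3:**
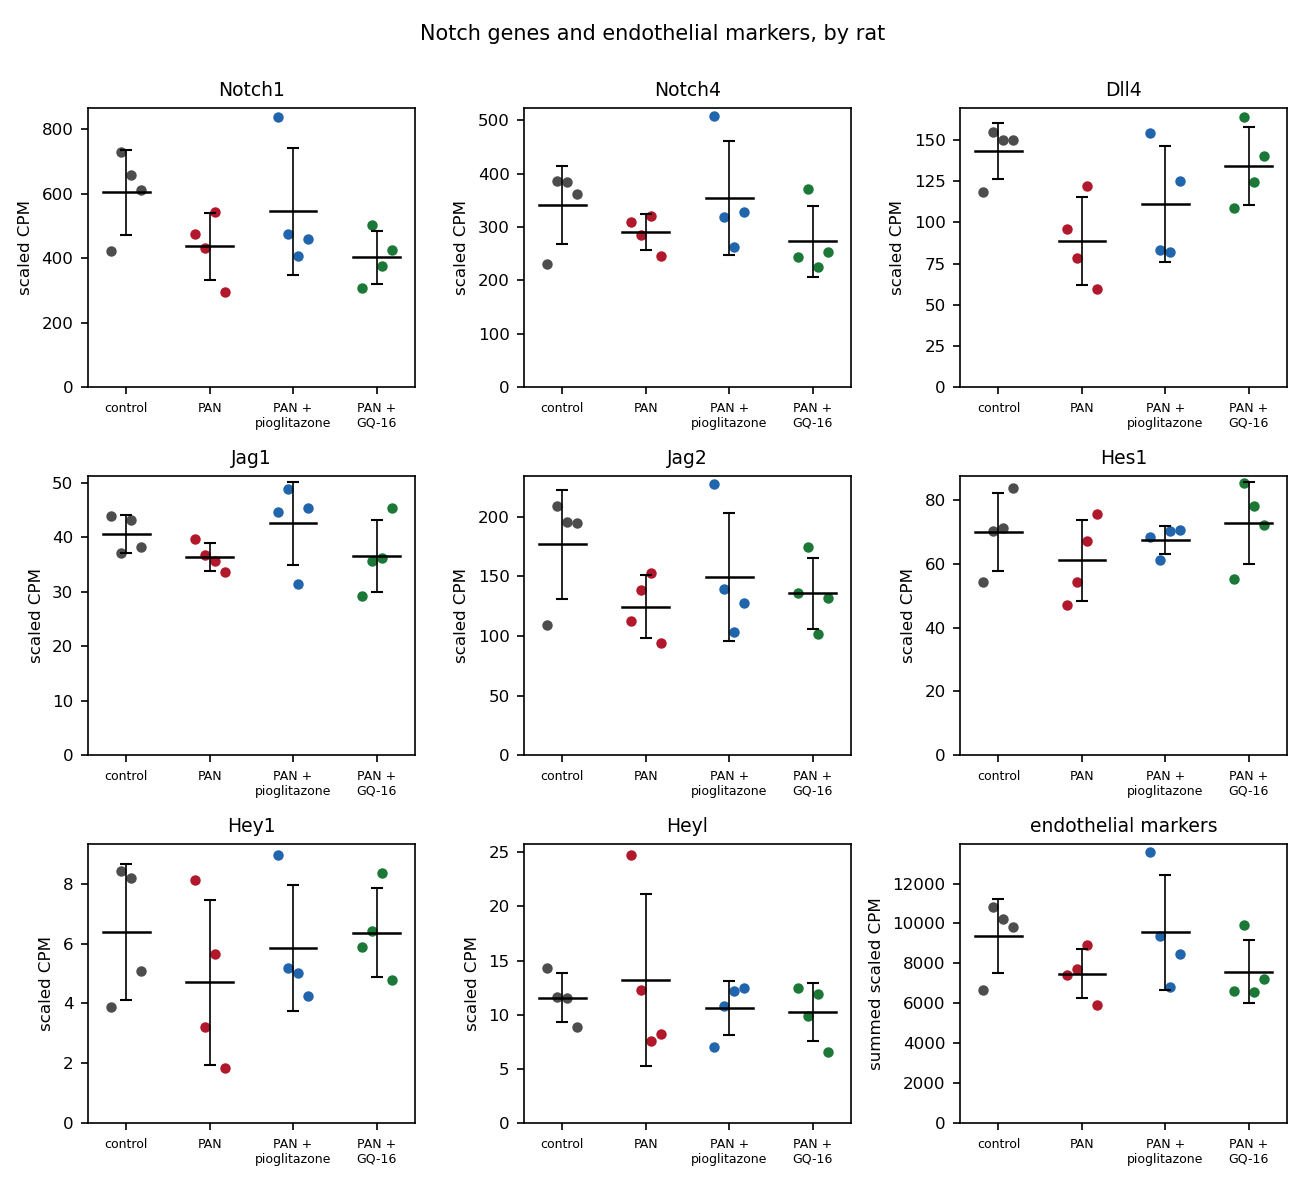
Scaled CPM of 8 Notch pathway genes and the summed level of endothelial markers in each of the 16 rats by group, with lines for the group mean and bars for ± 1 SD (n = 4). Control 1 (first grey point) lies below the other control rats for Notch1, Notch4, Dll4 and Jag2 and for the endothelial markers, and PAN 1 (first red point) is the highest rat for Heyl.

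The Hes and Hey repressors report Notch activity in many cells. Hes1 was at 54.3, 70.3, 71.4 and 84.0 scaled CPM in control and 47.3, 54.4, 67.3 and 75.7 in PAN rats, a log2 difference of -0.20 (adjusted p = 0.436, limma). Hey1 was at 3.87, 8.42, 8.19 and 5.08 and 8.11, 3.23, 5.64 and 1.85, a difference of -0.45 (adjusted p = 0.376, limma). Heyl, a smooth muscle Notch3 target, was at 14.3, 11.7, 11.5 and 8.85 and 24.7, 12.3, 7.59 and 8.23, a difference of 0.045 (adjusted p = 0.937, limma). The groups overlapped for all 3, and PAN 1 was the highest rat of the study for Heyl; without PAN 1 the difference was -0.29. Hes6 and Hey2 did not pass the test either (-0.51 and 0.37, adjusted p = 0.109 and 0.197, limma), and Hes6 passed only without PAN 4 (adjusted p = 0.0263, limma). None of the 5 Hes and Hey genes passed the test with all rats on this scale. With deposited totals Hey2 passed (log2 0.63, adjusted p = 0.0179, limma), beside 21.7% of all genes higher.

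The promoters of Hes1 and Axin2 are shown because these 2 genes are the best-known read-outs of the Notch and of the beta-catenin pathway. Each run is 250 bases immediately before the gene's start in RefSeq (build GRCr8), read 5′ to 3′ on the gene's strand, with capitals for TGGGAA, the core bound by RBPJ, in Hes1 (chr11:84213046-84213295, minus strand) and for the reverse complement of ATCAAAG, a TCF/LEF core, in Axin2 (chr10:94398535-94398784, plus strand).
Hes1: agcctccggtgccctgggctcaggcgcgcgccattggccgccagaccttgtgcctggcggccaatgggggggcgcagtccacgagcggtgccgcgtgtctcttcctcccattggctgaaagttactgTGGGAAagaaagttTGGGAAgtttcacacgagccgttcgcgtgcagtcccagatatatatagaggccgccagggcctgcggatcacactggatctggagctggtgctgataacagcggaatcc
Axin2: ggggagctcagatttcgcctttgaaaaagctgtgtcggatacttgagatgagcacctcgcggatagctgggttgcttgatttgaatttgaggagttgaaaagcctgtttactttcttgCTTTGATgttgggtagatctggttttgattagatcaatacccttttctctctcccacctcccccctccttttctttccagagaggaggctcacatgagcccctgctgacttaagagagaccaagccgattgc
The Hes1 run holds a pair of RBPJ cores on the gene's strand, 123 and 109 bases before the start, and the TCF/LEF core of Axin2 lies 132 bases before its start. Promoter windows of 300 bases, 250 before and 50 after the start, were found for 33 of the 44 genes. On either strand TGGGAA occurred in 8 of these (24.2%), Dll1, Hes1, Hey2, Lef1, Lgr6, Notch3, Notch4 and Tcf7l1, and in 25.7% of 33365 windows of the same length. ATCAAAG occurred in 2 (6.06%), Axin2 and Tcf7, and in 3.63% of all windows, and neither motif contains the other. The 33 were counted by gene and the 33365 by distinct window, without restriction to genes of the table, so these shares differ in unit. A match is a description of the letters only.

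None of the 12 Wnt receptors passed the test in PAN rats, with log2 differences from -0.58 for Fzd1 to 1.17 for Fzd2. Fzd1, Fzd2, Fzd4, Lrp5 and Lrp6 are named because their values were seen. Fzd2, a receptor for Wnt5a among others, was at 97.6, 16.1, 15.4 and 30.8 scaled CPM in control and 87.9, 73.5, 59.5 and 55.6 in PAN rats, where control 1 was the highest of all 8. Its adjusted p was 0.206 with all rats and 0.0389 without control 1 (limma), with log2 differences of 1.17 and 1.73. The podocyte sums set beside it ran 11363, 4362, 4025 and 5749 in control 1 to 4, where control 1 was again the highest. With the podocyte markers as a covariate the Fzd2 difference turned to -0.108 ± 0.087 (SE; adjusted p = 0.507, limma). The co-receptor Lrp5 was at 228, 208, 176 and 196 in control and 276, 298, 266 and 211 in PAN rats, with PAN 4 inside the control range. Its difference of 0.37 missed the threshold (adjusted p = 0.0719, limma) and passed it without PAN 4 or control 1 (adjusted p = 0.0207 and 0.0439, limma). Its partner Lrp6 differed by -0.21 (adjusted p = 0.325, limma), and by 0.087 with deposited totals, where Lrp5 was at 0.67; with the mesangial markers as a covariate the values were -0.59 for Lrp6 and -0.22 for Lrp5. Fzd4, the endothelial Norrin receptor, differed by -0.34 (adjusted p = 0.235, limma). The remaining receptors, Fzd3, Fzd5, Fzd6, Fzd7 and Fzd8 and the R-spondin receptors Lgr4 and Lgr6, had differences from -0.36 (Fzd8) to 0.092 (Lgr6).

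No relay gene passed the test. Ctnnb1, which encodes beta-catenin, was at 454, 599, 593 and 520.4 scaled CPM in control and 588, 557, 537 and 457 in PAN rats. Its log2 difference was -0.015, with a 95% confidence interval of -0.29 to 0.26, and PAN rats lay within the control range. Beta-catenin is controlled mainly as a protein, which these data do not measure. Axin2, whose promoter is printed above, was at 5.48, 9.91, 8.65 and 9.74 in control and 8.52, 5.73, 6.64 and 3.66 in PAN rats, a difference of -0.42 (interval -0.94 to 0.10; adjusted p = 0.276, limma). Control 1 was the lowest control rat, and the groups overlapped. Gsk3a and the 3 Dishevelled genes, which pass the signal on from Frizzled, had log2 differences from -0.047 to 0.11. The destruction complex genes Gsk3b and Apc, named after their values were seen, were lower in all 4 PAN rats than in any control rat: Gsk3b was at 38.8, 47.4, 41.6 and 41.6 and 27.9, 35.7, 36.8 and 35.5, with a difference of -0.31 (adjusted p = 0.114, limma), and Apc differed by -0.23 (adjusted p = 0.230, limma). This held only after the library factor: with deposited totals both genes overlapped between the groups, and the differences were -0.019 for Gsk3b and 0.069 for Apc.

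The nuclear factors did not pass the test. Lef1, itself a TCF/LEF target in many cells, was at 3.002, 4.84, 3.997 and 3.23 scaled CPM in control and 3.19, 2.69, 3.33 and 1.78 in PAN rats, a difference of -0.35 (adjusted p = 0.367, limma), with overlapping groups. Tcf7 differed by -0.36 and Tcf7l1 and Tcf7l2 by 0.26 and 0.24, all with an adjusted p above 0.05 by limma. Tcf7l1 passed the test without PAN 4 (adjusted p = 0.0382, limma). Scaling libraries to their deposited totals, which lifts the median PAN difference of all genes from -0.003 to 0.28, gave 8 genes that rose in place of 4, with Hey2, Tcf7l1, Tcf7l2 and Lrp5 added and none lower, beside 21.7% of all genes higher.

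**Figure D4:**
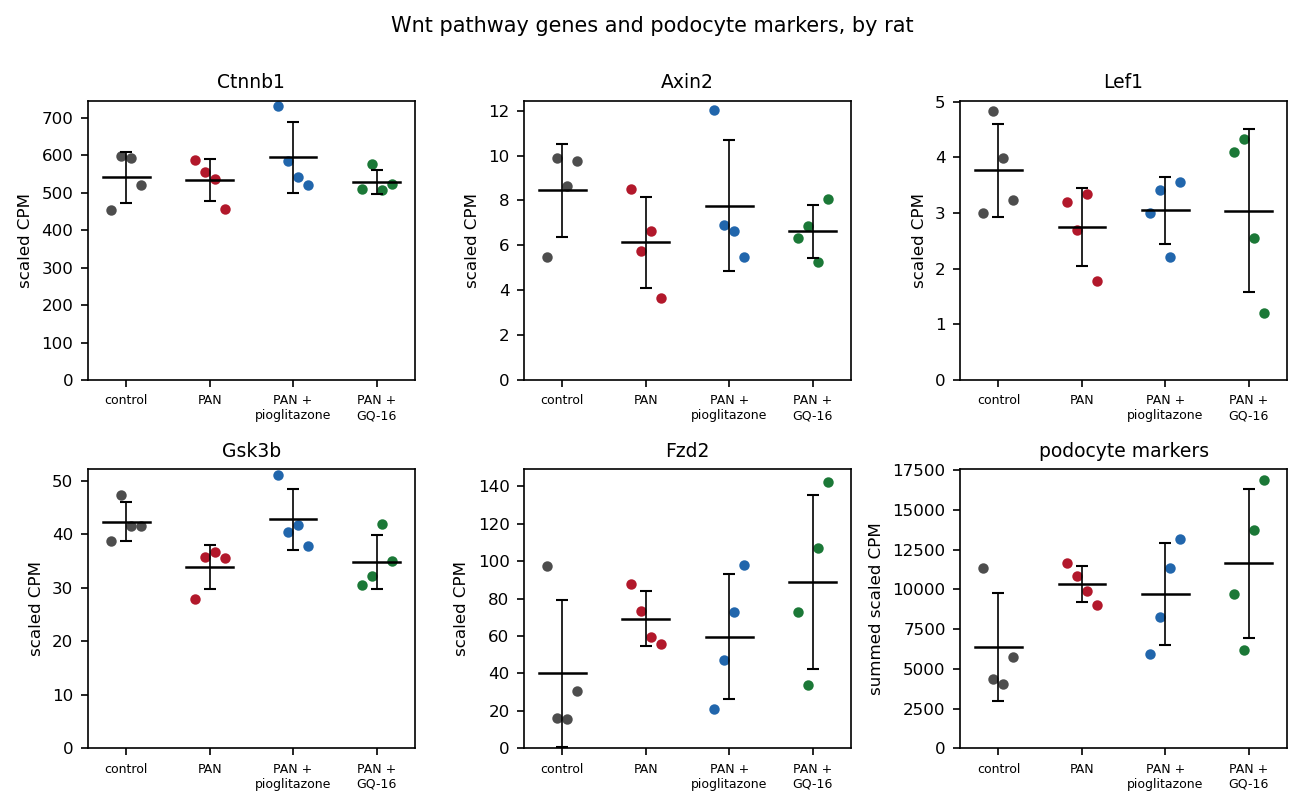
Scaled CPM of 5 Wnt pathway genes and the summed level of podocyte markers in each of the 16 rats by group, with lines for the group mean and bars for ± 1 SD (n = 4). All PAN rats lie below all control rats for Gsk3b on this scale, though not with deposited totals, and control 1 (first grey point) stands above the other control rats for Fzd2 and for the podocyte markers.

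Further genes of the 2 pathways were taken from lists that do not overlap the 44. Of 53 other Wnt components 6 rose (11.3%) and 2 fell (3.77%) in PAN rats, beside 7.13% and 1.5% of all genes, with a median log2 change of 0.007. The 5 largest rises were those of Sost, Nkd2, Ror2, Daam2 and Frzb, and the falls were those of Celsr1 and Tnks2. Sost, the secreted LRP5/6 inhibitor sclerostin, went from 8.66 ± 10.1 to 52.6 ± 34.8 scaled CPM (log2 2.74, adjusted p = 0.0214, limma), with PAN rats between 26.6 and 104. Ror2, a tyrosine kinase receptor for Wnt5a, went from 9.40 ± 2.23 to 24.97 ± 5.49 (log2 1.32, adjusted p = 0.00255, limma). Signalling of Wnt5a through Ror2 was not tested. Nkd2, which restrains Dishevelled, rose by 1.45 (adjusted p = 0.0390, limma), and Frzb, a secreted Wnt binder of the Sfrp type, was among the rises. Celsr1, a planar polarity cadherin, fell from 16.02 ± 6.56 to 7.09 ± 1.88, and Tnks2, a tankyrase that marks Axin for degradation, fell from 106 ± 5.40 to 89.5 ± 1.96 (log2 -1.02 and -0.24, adjusted p = 0.0189 and 0.0481, limma), while with deposited totals Tnks2 was at 0.059. Leaving out 1 rat ended the calls of Sost (without control 2, 3 or 4 or PAN 1, adjusted p 0.0571 to 0.0776), Nkd2 (without control 2 or 3 or PAN 1, 2 or 3, 0.0529 to 0.129), Celsr1 (without control 2 or PAN 3, 0.058 and 0.0514) and Tnks2 (without any rat but control 1, 0.0567 to 0.154), all by limma, and left that of Ror2.

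Of 19 genes described elsewhere as Wnt or beta-catenin targets, 7 rose (36.8%) and 1 fell (5.26%), beside the same 7.13% and 1.5% of all genes, with a median log2 change of 0.55. Bambi, Trpc6, Twist1 and Runx2 were among the 5 largest rises. Bambi, a decoy receptor of TGF-β signalling, went from 71.5 ± 39.6 to 180.0 ± 30.1 (log2 1.45, adjusted p = 0.0195, limma). Jun, an AP-1 factor, fell from 245 ± 27.5 to 189 ± 16.4 (log2 -0.36, adjusted p = 0.0194, limma). Most of these targets answer to other pathways too, and Axin2 did not pass the test. Bambi lost its call without control 2, control 3 or PAN 2 (adjusted p 0.0613 to 0.0767, limma) and Jun without control 3 or PAN 2 (adjusted p = 0.072 and 0.0678, limma). Of 34 other Notch components 3 rose (8.82%) and none fell, a share near that of all genes, with a median of 0.014. Psen2, a catalytic subunit of the gamma-secretase that frees the Notch domain, went from 42.4 ± 10.0 to 86.7 ± 10.8 scaled CPM (log2 1.04, adjusted p = 0.00208, limma). Poglut1, which adds glucose to Notch repeats, went from 18.4 ± 3.41 to 30.97 ± 4.91 (log2 0.72, adjusted p = 0.00280, limma), and Numbl, an adaptor that can restrain Notch, from 2.41 ± 1.08 to 7.34 ± 3.19 (log2 1.28, adjusted p = 0.0124, limma). The calls of all 3 held without any 1 rat. Of the 10 further pathway genes given with values, none passed the test with the mesangial markers as a covariate, Ror2 and Psen2 alone passed with the mitochondrial share, and Jun and Tnks2 lost their calls with deposited totals (limma).

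Neither drug was accompanied by a called change of any of the 44 genes against PAN alone. For pioglitazone against PAN 0 of the 44 and 0% of all genes passed the test (limma), 3 of the 44 had an unadjusted p under 0.05 (5.57% of all genes did), and the smallest adjusted p in the set was 0.775. The groups did not overlap for 2 of the 44, Gsk3b and Apc, both higher with pioglitazone (Apc overlapped with deposited totals), beside 2.98% of all genes. For GQ-16 against PAN 0 of the 44 and again 0% of all genes passed (limma), 4 of the 44 had an unadjusted p under 0.05 (6.92% of all genes), and the smallest adjusted p was 0.587. There the groups did not overlap for 1 gene, Notch3, lower with GQ-16, beside 3.26% of all genes. Voom on the recovered reads also called 0 of the 44 in either comparison.

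The 4 genes that rose in PAN rats are given by rat in the treated groups, as values. They were chosen for a high level in the same PAN rats, so lower treated values are expected from that choice. Such differences are not read as drug effects. Notch3 was at 309.6, 234, 198 and 183 scaled CPM in pioglitazone 1 to 4 and 105, 181, 159 and 159 in GQ-16 1 to 4. Every GQ-16 rat was below every PAN and every pioglitazone rat, and 3 of the 4 were above all control rats. The log2 difference from PAN was -0.54 with GQ-16 (95% confidence interval -0.95 to -0.13; adjusted p = 0.587, limma) and 0.067 with pioglitazone (interval -0.34 to 0.48; adjusted p = 0.944, limma). Sfrp2 was at 269, 233, 191 and 203 with pioglitazone and 151, 199, 182 and 162 with GQ-16, where 3 GQ-16 rats lay below all PAN rats and all 4 lay above all control rats. Its difference from PAN was -0.47 with GQ-16 (interval -0.84 to -0.10; adjusted p = 0.587, limma) and -0.11 with pioglitazone (interval -0.48 to 0.26; adjusted p = 0.892, limma). The 2 drug comparisons share the same 4 PAN rats.

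Wnt5a was at 10.1, 10.3, 9.85 and 9.49 scaled CPM with pioglitazone and 7.54, 5.99, 10.1 and 11.4 with GQ-16, the pioglitazone rats lying close together below 3 of the 4 PAN rats. The differences from PAN were -0.26 with pioglitazone (adjusted p = 0.795, limma) and -0.46 with GQ-16 (adjusted p = 0.720, limma). Dkk2 was at 449, 423, 258 and 368 with pioglitazone and 288, 358, 318 and 360.3 with GQ-16, overlapping PAN rats in both groups. Dll4, chosen after its values were seen, was at 154, 83.5, 81.8 and 125 with pioglitazone and 109, 164, 124 and 141 with GQ-16, and its difference from PAN with GQ-16 was 0.62 (adjusted p = 0.587, limma). The summed mesangial and smooth muscle markers were 1327 to 2312 with pioglitazone and 1136 to 1504 with GQ-16, beside 1413 to 1959 in PAN rats. With these markers as a covariate the differences from PAN with GQ-16 were -0.28 for Notch3, -0.23 for Sfrp2, 0.065 for Wnt5a and 0.045 for Dkk2, and with pioglitazone 0.17, -0.016, -0.059 and 0.048 in the same order, none past the threshold.

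The genes followed whatever their values gave no called difference under either drug. Ctnnb1 was at 733, 586, 542 and 521 scaled CPM with pioglitazone and 509.8, 576, 508 and 524 with GQ-16, and pioglitazone 1 was the highest of the 16 rats. Notch1 was at 838, 475, 407 and 461 and 306, 502, 377 and 426, with pioglitazone 1 again the highest of all rats. Notch2 was at 56.4, 58.6, 66.5 and 69.1 with pioglitazone and 46.0, 49.7, 77.8 and 72.7 with GQ-16. Both treated groups overlapped the PAN rats for Notch2, and 2 rats of each lay below all PAN rats. Axin2 was at 12.03, 6.92, 6.64 and 5.49 and 6.32, 6.86, 5.25 and 8.08, Lef1 at 3.001, 3.42, 2.21 and 3.55 and 4.10, 4.33, 2.55 and 1.203, and Sfrp1 at 7.13, 3.37, 4.71 and 4.73 and 5.74, 7.38, 4.54 and 5.62, pioglitazone first. Pioglitazone 1 was the highest rat of the study for Axin2, and no treated rat came near the Sfrp1 value of PAN 1. Jag1 was at 44.6, 48.8, 31.5 and 45.3 with pioglitazone and 29.2, 35.7, 36.1 and 45.3 with GQ-16, and Hes1 at 68.5, 61.2, 70.4 and 70.5 and 55.2, 85.5, 78.1 and 72.1. Hey1 was at 8.96, 5.17, 5.01 and 4.26 and 5.90, 6.42, 8.34 and 4.78, and Heyl at 7.03, 10.8, 12.2 and 12.4 and 12.5, 9.92, 11.95 and 6.57, again pioglitazone first. For these 4 genes treated and untreated PAN rats overlapped. Pioglitazone 1 also had the highest endothelial marker sum, 13576 scaled CPM against at most 10819 in the other 15 rats.

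GQ-16 and pioglitazone, a partial and a full agonist of the same receptor, were compared directly at the single dose each group received, which the labels do not give, so whether doses match is not known. None of the 44 genes and 0% of all genes passed the test (limma), 4 of the 44 had an unadjusted p under 0.05 (7.28% of all genes), and the smallest adjusted p in the set was 0.679; voom also called 0 of the 44. The groups did not overlap for 1 of the 44, Notch3, beside 2.72% of all genes. Notch3 was -0.61 log2 units in GQ-16 against pioglitazone rats, with a 95% confidence interval of -1.02 to -0.20 (adjusted p = 0.679, limma). Fzd4, singled out by its value, differed by -0.47 (interval -0.85 to -0.083; adjusted p = 0.679, limma). The intervals were -0.73 to 0.006 for Sfrp2, -0.66 to 0.26 for Wnt5a, -0.55 to 0.24 for Dkk2 and -0.43 to 0.11 for Ctnnb1, so differences up to those bounds remain possible with 4 rats a group, and the 2 drugs are not shown to act alike.

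**Figure D5:**
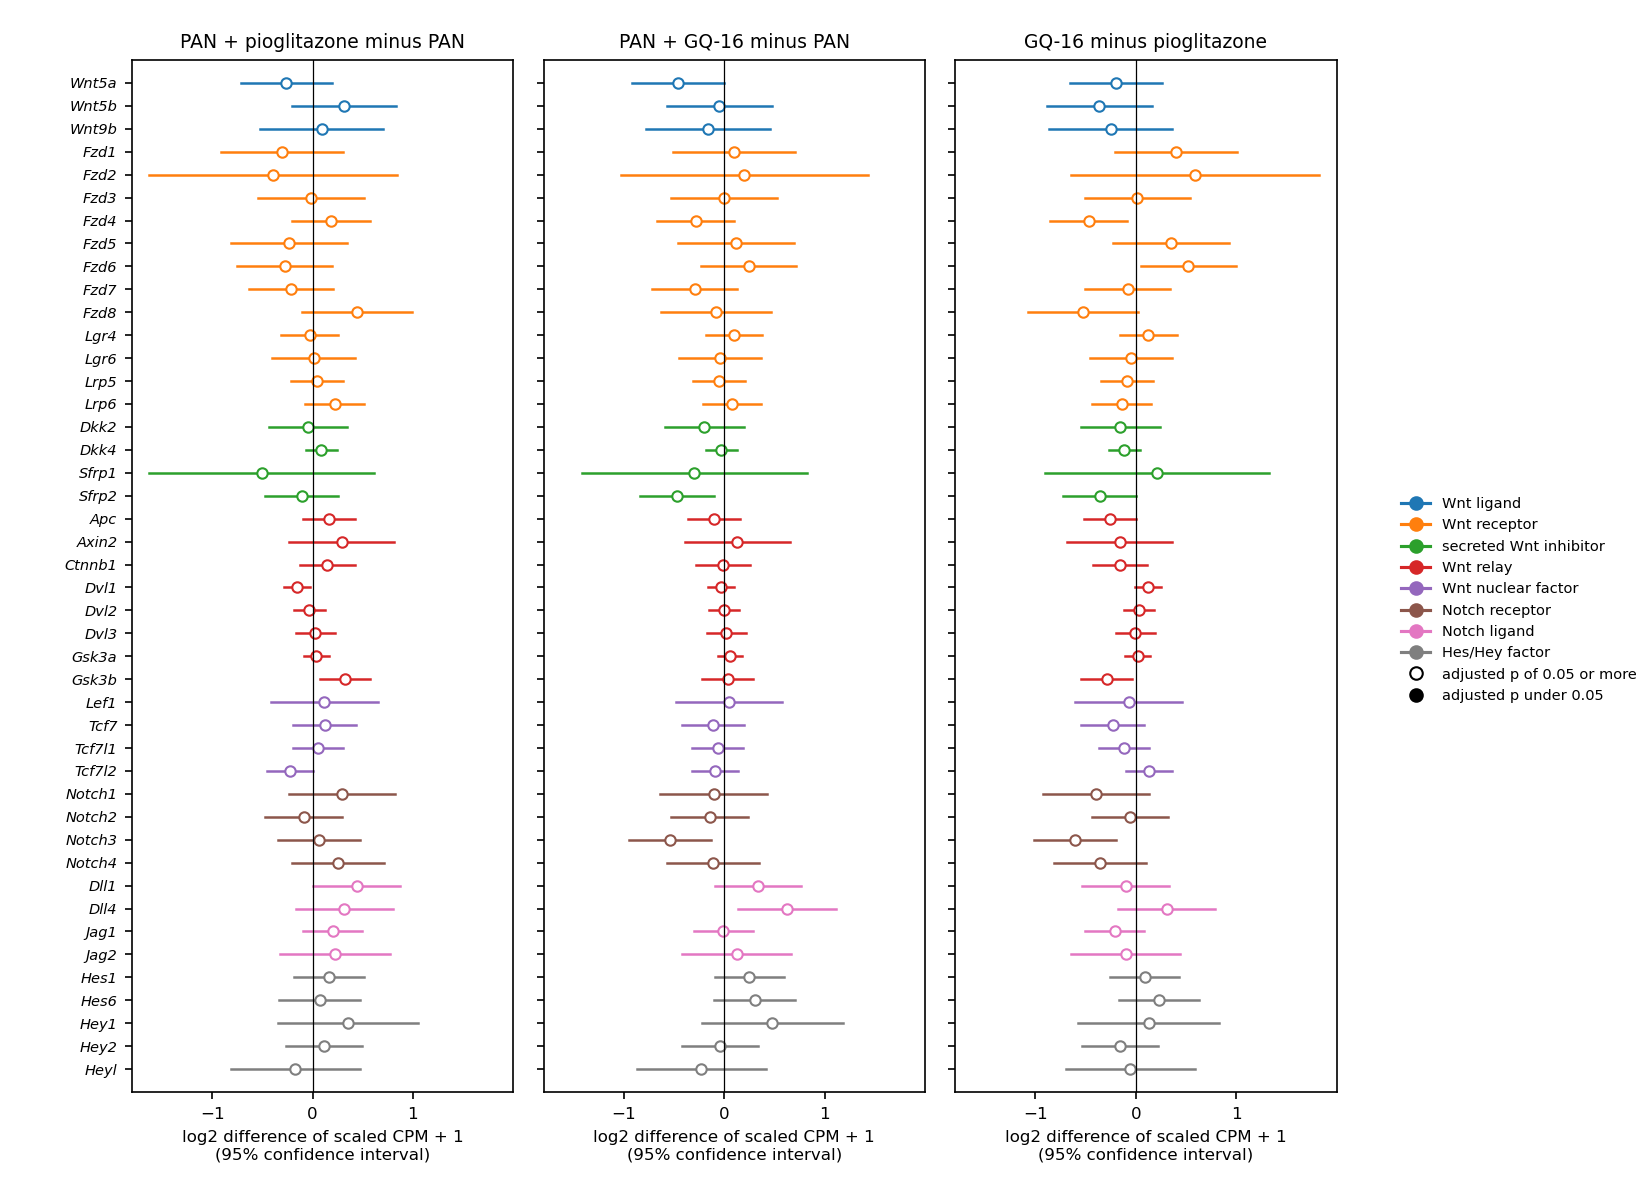
Log2 difference of each of the 44 genes on the log2(scaled CPM + 1) scale for pioglitazone against PAN, GQ-16 against PAN and GQ-16 against pioglitazone, coloured by role, with bars for the 95% confidence interval of the limma fit. All points are open, since no adjusted p is under 0.05, and Notch3 lies left of 0 in both GQ-16 panels.

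Against the healthy control rats, which all these comparisons share, pioglitazone rats had 2 of the 44 genes changed, Sfrp2 and Notch3, both higher, beside 2.86% of all genes (limma). In the same comparison 5 of 10 mesangial and smooth muscle and 4 of 7 striated muscle markers rose, and 3 of 12 distal tubule and duct markers fell. The log2 differences were 1.09 for Sfrp2 and 1.04 for Notch3 (adjusted p = 0.00909 and 0.0176, limma), beside 1.203 and 0.98 in PAN rats without a drug. Notch3 lost this call without control 3 or without pioglitazone 2 (adjusted p = 0.0721 and 0.0651, limma). Dkk2 and Wnt5a, at 0.62 and 0.62, missed the threshold (adjusted p = 0.0797 and 0.125, limma); Dkk2 passed it without pioglitazone 3 (adjusted p = 0.026, limma) and Wnt5a without control 1 (adjusted p = 0.0211, limma). With the tubule markers as a covariate Sfrp2 was at 0.95 and Notch3 at 0.78, with the mesangial markers at 0.73 and 0.66, and none of these passed (adjusted p = 0.156, 0.217, 0.469 and 0.638, limma). With the mitochondrial share Notch3 was at 1.08, as large as before, and just missed the threshold (adjusted p = 0.0525, limma). Fzd1, lower, passed the threshold without pioglitazone 3 (adjusted p = 0.0418, limma). The groups did not overlap for 5 of the 44, Sfrp2, Notch3, Lrp5 and Hey2 higher and Hes6 lower, beside 11.8% of all genes.

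GQ-16 rats had 0 of the 44 genes changed against control, beside 0.741% of all genes (limma), with 11 of the 44 at an unadjusted p under 0.05 (24% of all genes) and 0 called by voom. The closest was Sfrp2, at 0.73 log2 units (adjusted p = 0.0543, limma), followed by Fzd4 at -0.62 (adjusted p = 0.0776, limma). Notch3, Dkk2 and Wnt5a differed by 0.44, 0.47 and 0.42 (adjusted p = 0.186, 0.146 and 0.242, limma). Without control 1 the count was 5 beside 8.43% of all genes, with Sfrp2, Wnt5a and Fzd2 higher and Tcf7 and Fzd4 lower (adjusted p = 0.0213, 0.0437, 0.0339, 0.0426 and 0.0375, limma). The groups did not overlap for 6 of the 44, Sfrp2 and Dkk2 higher and Wnt9b, Tcf7, Fzd4 and Dkk4 lower, beside 11.7% of all genes. In this comparison 4 of 7 striated muscle markers rose, and no mesangial or distal tubule marker was called. Of the further pathway genes, pioglitazone rats had Daam2, Ror2, Trpc6, Twist1, Psen2 and Poglut1 above control, GQ-16 rats had Bambi, and neither drug group had any called against PAN. A gene called in one drug group against control and not in the other is not shown to differ between the drugs.

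The PAN mean was the highest of the 4 for 8 genes (18.2%; 23.9% of all genes) and the control mean for 15 (34.1%; 33.5%). The pioglitazone mean was the highest for 14 (31.8%; 18.1%) and the GQ-16 mean for 7 (15.9%; 24.5%). Pioglitazone 1 was the highest rat of its group for most genes with the highest mean in pioglitazone, though not for Jag1, Lrp5 and Dkk4. It held 507.7 scaled CPM for Notch4, 34.98 for Wnt5b, 733 for Ctnnb1 and 44.4 for Dll1. The other pioglitazone rats reached at most 328.3, 17.26, 586 and 31.5 in the same order. How far the pioglitazone share rests on this rat was not tested. A treated mean lay between the control and PAN means for 21 of the 44 with pioglitazone and for 23 with GQ-16, against 46.2% and 43.9% of all genes. The genes that rose were chosen for a high PAN level against the same control rats, so the place of a treated mean between those groups is not read for them. Their GQ-16 means were 174 ± 21.2 for Sfrp2, 151 ± 32.3 for Notch3, 8.76 ± 2.46 for Wnt5a and 331 ± 34.9 scaled CPM for Dkk2, and the pioglitazone means, in the same order, 224 ± 34.7, 231 ± 56.5, 9.94 ± 0.356 and 375 ± 84.6. Between rats of a group the median coefficient of variation of the 44 genes, which were not matched to other genes for level, was 16.9% in control, 20.8% in PAN, 18.1% in pioglitazone and 20.8% in GQ-16 rats beside 11.4%, 12.6%, 14.02% and 14.3% for all genes. The lowest coefficients were those of Dkk4 in control (2.63%), Dvl1 in PAN (2.75%), Dvl2 in pioglitazone (2.76%) and Gsk3a in GQ-16 rats (0.99%), and the most variable were Fzd2 in control (97.7%) and Sfrp1 in PAN rats (134%).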

How the data were processed

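Messenger RNA of sieved glomeruli from 16 rats, 4 in each of 4 groups by the submitters' group label, was measured by stranded paired-end sequencing, per the labels' protocols. The authors deposited 1 table of log2 CPM values (counts scaled to a common library total) with Ensembl gene identifiers and symbols for 13222 genes. Per the submitters' processing notes, HISAT2, Subread with featureCounts and limma were used with rat build Rnor_6.0; versions and settings are not given in the sources used here. The values hold 0.5 read added to each count and 1 to each total, and undoing this gave whole reads for 100.0% of values (within 0.05 read), so the depth of each library is known. No gene was listed that failed to reach 2 CPM in 8 or more libraries, so totals cover listed genes only, and the share of mitochondrial transcripts (21 genes) moves them.

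Scaled CPM is therefore the deposited CPM divided by a median-ratio library factor (0.741 to 1.15). limma 3.58.1 in R 4.3.3 fitted 4 group means to log2(scaled CPM + 1) of all 16 rats with a variance trend; the pseudocount of 1 understates changes of low genes. Tests were two-sided, p-values were Benjamini-Hochberg adjusted over 13222 genes, and an adjusted p under 0.05 was a call. The procedure was tested on simulated data. The p-values measure the spread between rats, and that each library is a separate animal rests on the labels. The rule for the 44 genes uses only their symbols, but this rule and the lists were chosen with earlier results of these data known. Values of every rat are given for genes called in any comparison and for Ctnnb1, Axin2, Lef1, Sfrp1, Notch1, Notch2, Jag1, Hes1, Hey1 and Heyl; Wnt4 and Dkk3, on the same list, were not analysed here. Of the further pathway lists (58, 25 and 43 genes, of which 53, 19 and 34 are in the table) up to 5 called rises and falls in PAN are named, and 1 of these genes is not reported here. Marker lists for parietal epithelium (7 genes), proximal tubule (12) and leukocytes (13) had 0, 0 and 1 gene called in PAN against control, the last lower. Alternatives were deposited totals, quantile normalization, voom on recovered reads, other pseudocounts and filters, covariates for title number, mitochondrial share and marker lists, a fit of 2 groups and leaving out each rat; the endothelial and mesangial covariates and the restriction to low title numbers were added after the data were seen. What the number in each sample title stands for is not stated, and the covariate for it marked numbers of 25 or more. Promoter sequences are from RefSeq, build GRCr8, matched by symbol; no gene coordinates of the table's build were used. Scaling and plots used Python 3.11.15, pandas 2.3.3, numpy 2.4.6 and matplotlib 3.10.9.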

Additional observations from a re-analysis of the deposited data

Results flagged for a closer look

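A value is singled out when its gap to the nearest rat is too large a share of the range of its group of 4 rats by Dixon's test. This occurred 11 times in 216 sets of values (the 44 genes and 10 library measures in each group), where chance gives about 1 in 20, or 10.8. Control 1 gave 6 of the 11. It was low for Notch4 at 231.6 scaled CPM (other control rats 363 to 386), for Jag2 at 109 (194 to 209) and for Dll4 at 118 (150.1 to 155). It was also low for the mean of the endothelial markers at 8.21 on the log2 scale (8.67 to 8.72), and high for Lgr4, a receptor for R-spondins, at 66.7 (50.8 to 51.5) and for Dvl2 at 21.4 (19.6 to 19.9). PAN 1 was low for Gsk3b at 27.9 scaled CPM (35.5 to 36.8), and control 2 was low for Dvl1 at 109.8 (118 to 119). Pioglitazone 1 was high for Tcf7 at 22.0 (15.4 to 16.2) and for Dll1 at 44.4 (30.4 to 31.5), and GQ-16 1 was low for Dkk4 at 8.70 (9.20 to 9.31).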

How the results depend on the processing

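The count of Wnt and Notch genes changed in PAN against control rats was 4, and 8 with library totals as deposited, 1 with the mitochondrial share, 2 each with the title number, the tubule or the podocyte markers and 0 with the mesangial markers as a covariate, and 2 in a fit to only the 2 groups. The share of all genes changed moved too, from 8.63% to 22.3% with deposited totals, 2.1% with the mitochondrial share, 2.87%, 1.84% and 5.02% with the title number, tubule and podocyte markers, 0.00756% with the mesangial markers and 6.24% in the fit to 2 groups. For pioglitazone against control the count was 2, and 4 with deposited totals or the endothelial markers, 1 with the mitochondrial share and 0 with the tubule or the mesangial markers as covariates, beside 2.86%, 4.98%, 6.87%, 0.507%, 0% and 0% of all genes. For GQ-16 against control it was 0, and 1 with a minimum mean of 10 scaled CPM, which tests fewer genes and called 165 of all genes in place of 98. Without 1 rat these counts ran from 2 to 7, from 1 to 4 and from 0 to 5, while the share of all genes ran from 3.88% to 13.3%, from 0.242% to 4.63% and from 0.0151% to 8.43%. The 3 comparisons without control rats stayed at 0 of the 44 in every setting, where at most 1 of all genes was called for pioglitazone against PAN, 27 for GQ-16 against PAN and 0 for GQ-16 against pioglitazone. Of 56 log2 changes followed, 18 kept direction and side of the threshold in every setting fitted, other than leaving out 1 rat. There were 15 such settings, but PAN comparisons lacked that of low title numbers and low genes that of at least 10 scaled CPM. In at least 1 setting 22 reversed, 13 others lost their call and 3 others gained one. Each covariate takes up a degree of freedom. The mesangial markers, whose mean did not overlap between control and PAN rats, also raised the standard errors of Sfrp2, Notch3, Dkk2 and Wnt5a. Beyond that the cause was not tested. The log2 changes that reversed are given by setting. With the mesangial markers they were Wnt5a -0.099, Lrp5 -0.22, Hes6 0.16, Ctnnb1 0.070, Lef1 0.36, Sfrp1 -0.36, Notch2 -0.42, Hes1 0.098, Heyl -0.056, Fzd1 0.39, Fzd2 -1.17, Fzd4 0.35 and Nkd2 -0.40 for PAN against control; Wnt5a -0.16 for pioglitazone against control; Wnt5a -0.034 for GQ-16 against control; Dkk2 0.048 for pioglitazone against PAN; Wnt5a 0.065 and Dkk2 0.045 for GQ-16 against PAN; Wnt5a 0.12 for GQ-16 against pioglitazone. With deposited totals they were Ctnnb1 0.29, Jag1 0.14, Hes1 0.10 and Tnks2 0.059 for PAN against control; Notch3 -0.016 for pioglitazone against PAN. With the mitochondrial share they were Ctnnb1 0.20, Lef1 0.12, Notch2 -0.010, Heyl -0.067 and Fzd2 -0.43 for PAN against control. With the podocyte markers they were Ctnnb1 0.17, Heyl -0.14 and Fzd2 -0.11 for PAN against control. With the endothelial markers they were Ctnnb1 0.13 and Heyl -0.12 for PAN against control; Notch3 -0.036 for pioglitazone against PAN. With the title number they were Sfrp1 -0.077, Heyl -0.015 and Fzd4 0.059 for PAN against control; Dkk2 0.026 for pioglitazone against PAN, with the tubule markers Sfrp1 -0.70, Heyl -0.12 and Fzd1 0.14 for PAN against control, and with quantile normalization Heyl -0.008 for PAN against control. Leaving out 1 rat reversed Ctnnb1 (-0.097 to 0.058), Heyl (-0.29 to 0.24) and Sfrp1 (-0.50 to 0.57) in PAN against control, and Dkk2 (-0.16 to 0.12), Notch3 (-0.083 to 0.17) and Sfrp2 (-0.22 to 0.019) in pioglitazone against PAN. No paired analysis was possible because the labels give no replicate numbers. Rats with a title number of 15 or less gave counts of 2, 0 and 0 for pioglitazone against control, GQ-16 against control and GQ-16 against pioglitazone, beside 265, 169 and 0 of all genes. PAN had only 1 such rat, so its comparisons were not fitted that way. Depth limits the lowest genes: Fzd3 had 11 reads and Fzd7 13 in their shallowest libraries, and how much of the spread between rats is counting error was not tested.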
